A study of Mus musculus with 4 samples.

Results

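The 10 genes described here, Ptpn22, Ptpn2, Sh2b3, Ubash3a, Tyk2, Ifih1, Tagap, Slc11a1, Cd226 and Clec16a, are mouse genes whose human counterparts, or whose own mouse variants in the case of Slc11a1, have been linked to the risk of type 1 diabetes. They were picked by name from the 31053 genes listed in the count matrices, and all 10 are listed there. Each gene was followed through 7 classes of leukocytes gated on marker genes: CD4-only, CD8-only and Foxp3-positive T cells, B cells, NK cells, macrophages and dendritic cells.

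The counts came from 4 droplet libraries prepared with a 5′ single-cell kit, 1 library for each genotype in each tissue. All animals were female mice, labelled pre-diabetic, with both Ocab alleles floxed (Ocabfl/fl, the control group), and the other group also carried the CD4-Cre transgene (Ocabfl/fl.CD4-Cre). Ocab is another name of Pou2af1, a transcriptional coactivator of Oct factors, and Cre driven by the Cd4 promoter acts in developing T cells before the CD4 and CD8 lineages part. The strain is not named in the labels. Pancreatic leukocytes of 12-week-old mice were sorted for CD45 by flow cytometry from 4 mice a group, whereas T cells of the pancreatic lymph nodes of 8-week-old mice were selected for CD3 with magnets from 5 mice a group. The mice of a group went into 1 library, so no replicate error can be given for any genotype difference. Tissue, age and selection differed together and cannot be told apart.

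The libraries listed between 3059 and 6963 barcodes with 14851217 to 32798133 unique molecular identifiers (UMIs, each a counted RNA molecule). After filtering, 2847 to 5326 barcodes were kept in the lymph node libraries and 4023 to 6255 in the pancreas libraries, with medians of 3615 to 4629 UMIs per barcode. In the lymph node CD4-Cre library 9.39% of barcodes exceeded the mitochondrial limit, against 1.01% in the lymph node control library. Pairs of libraries shared 21 to 70 barcode sequences. The gates took 65.8% to 79.4% of the kept barcodes and put no barcode in several classes. The lymph node libraries held too few NK cells, macrophages and dendritic cells to use, and only the control library had B cells enough for a level (44 barcodes).

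The targeted gene behaved by its labels in T cells. Pou2af1 had 19 UMIs in CD4-only cells of the control pancreas and 3 in the CD4-Cre pancreas (6.10 and 0.412 CPM). In the lymph node it had 38 UMIs in control CD4-only cells and 0 in CD4-Cre, and 13 and 0 in CD8-only cells. Its level in pancreatic B cells was 219 CPM in control and 227 CPM in CD4-Cre. CPM is the number of UMIs of a gene scaled to a total of 1000000 UMIs of the class in that library. It is a share of the class's UMIs, not an amount per barcode, and depth differed between classes. In the control and CD4-Cre pancreas the median UMIs per barcode were 14042 and 12238 in dendritic cells and 7972.5 and 8294 in macrophages. They were 3459 and 3477 in CD4-only cells and 3548 and 3389.5 in B cells. All intervals given are exact Poisson 95% intervals of the summed counts, or for ratios the exact interval of 2 such counts. They cover counting error only.

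The class gates were checked against marker lists wider than the gates. Macrophages had summed macrophage markers of 18689 CPM in control and 19671 CPM in CD4-Cre, with all 5 of 5 markers detected in both pancreas libraries, and none of the 4 CD4 T markers was detected in them. NK cells had NK marker sums of 16764 and 14732 CPM. B cells had B marker sums of 2699 and 2351 CPM in control and CD4-Cre, and the next class, Foxp3-positive T cells, 435 and 522 CPM. Dendritic cells had dendritic marker sums of 13800 and 16711 CPM, and macrophages 7056 and 6990 CPM. Detection alone did not separate classes, since all 5 dendritic markers were also found in macrophages. The CD8 T markers did not separate CD8-only T cells (19789 and 12427 CPM) from NK cells (23687 and 17904 CPM). Some lymphocyte barcodes carried myeloid or exocrine RNA in amounts that differed between the genotypes.

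Several of these genes act on antigen receptor signalling in lymphocytes. Ptpn22 encodes a phosphatase that, with its partner kinase Csk, removes activating phosphates from Src family and Syk family kinases. Ubash3a encodes a regulator of T cell receptor signalling of the STS family, and Tagap a protein with a domain of GTPase-activating proteins, induced when T cells are activated. Cd226 is a costimulatory receptor of T and NK cells that binds Pvr and Nectin2 and competes with Tigit and Cd96 for these ligands. Ptpn2, Sh2b3 and Tyk2 belong to cytokine signalling: Tyk2 is a Janus kinase of the interferon and IL-12 family receptors, Ptpn2 dephosphorylates Janus kinases and STAT proteins, and Sh2b3 is the adaptor Lnk, which restrains cytokine and growth factor receptors. Ifih1 encodes MDA5, a cytosolic sensor of long double-stranded RNA that signals through Mavs to induce type I interferon. Slc11a1 is the divalent metal transporter Nramp1 of phagosomes, and Clec16a a membrane-associated protein of endosomal traffic and mitophagy.

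In the GRCm38 build, by a match of gene identifiers to GENCODE M21, Ifih1 spans chr2:62595798-62646255, Ubash3a chr17:31207873-31246892, Tagap chr17:7926000-7934897 and Slc11a1 chr1:74375195-74386062. Ptpn22 spans chr3:103859795-103912247, Sh2b3 chr5:121815488-121837646, Tyk2 chr9:21104068-21131243 and Clec16a chr16:10545339-10744878. Ptpn22, Tagap, Sh2b3, Tyk2 and Clec16a each have an annotated gene on the opposite strand that overlaps them, among them Atxn2 for Sh2b3. The strand setting of the counting is not given in the sources used here. Tagap has a near copy, Tagap1: 47.6% of the 50-base windows of its transcript occur in Tagap1 as well, but 0% of those in the first 500 bases, the end that this kit reads. Over all classes Tagap had 4636 UMIs and Tagap1 had 90, so the Tagap values are uncertain to the extent that reads were split between the copies.

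Promoter sequence was available for 8 of the 10 genes from a RefSeq table (assembly GRCm38.p6), as 9 windows of 250 bases before to 50 after a transcription start. They were searched on both strands for ATGCAAAT, the octamer bound by Oct factors with which Pou2af1 acts, and for GAAANNGAA, the core of the interferon-stimulated response element. The octamer was found in 0 of the 9 windows, and it occurs in 1.74% of 32851 promoter windows. The interferon element was found in the window of 1 gene, Ifih1, with 2 matches that begin 112 bases before and 32 bases after the start; 8.56% of all windows hold it. Absence of a match says only that these letters are not in this window, and a match is a description of the sequence. The 250 bases before the start are printed for the gene with the match and for Slc11a1, the gene most restricted to 1 class, and for Ptpn22 (the first of its windows), which differed most regularly between naive-gated and experienced-gated T cells. Capitals mark the upstream match, which lies on the opposite strand and so reads as the reverse complement of the searched letters.
Ifih1, chr2:62646256-62646505, minus strand: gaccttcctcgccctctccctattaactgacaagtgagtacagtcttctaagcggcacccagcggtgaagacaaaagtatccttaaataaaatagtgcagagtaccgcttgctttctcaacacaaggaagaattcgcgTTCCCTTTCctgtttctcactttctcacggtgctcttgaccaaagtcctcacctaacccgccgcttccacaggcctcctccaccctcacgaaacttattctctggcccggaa
Slc11a1, chr1:74374953-74375202, plus strand: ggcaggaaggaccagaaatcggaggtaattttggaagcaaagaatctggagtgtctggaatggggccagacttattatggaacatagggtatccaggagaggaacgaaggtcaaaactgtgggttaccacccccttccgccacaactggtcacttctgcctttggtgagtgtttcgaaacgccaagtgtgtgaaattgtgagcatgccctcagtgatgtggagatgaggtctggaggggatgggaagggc
Ptpn22, chr3:103859545-103859794, plus strand: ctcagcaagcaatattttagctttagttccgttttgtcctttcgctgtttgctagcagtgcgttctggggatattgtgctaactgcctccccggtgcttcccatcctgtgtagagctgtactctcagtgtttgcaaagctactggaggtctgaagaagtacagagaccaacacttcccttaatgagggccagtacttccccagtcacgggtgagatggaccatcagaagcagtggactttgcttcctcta

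Ptpn22 RNA was high in CD8-only T cells, Foxp3-positive T cells and NK cells and low in B cells, macrophages and dendritic cells. CD8-only cells of the pancreas had 154 CPM (138 to 173) in control, while CD4-Cre had 155 CPM (141 to 169). NK cells had 152 CPM in control and 111 CPM in CD4-Cre, Foxp3-positive cells 105 and 140.0 CPM, and CD4-only cells 89.3 and 76.6 CPM. B cells had 33.9 and 32.8 CPM, macrophages 23.1 and 26.9 CPM, and dendritic cells 17.7 and 24.1 CPM. The step from CD4-only T cells down to B cells exceeded counting error in both pancreas libraries, whereas B cells, macrophages and dendritic cells did not separate from their neighbours in the order. CD8-only cells had more Ptpn22 than CD4-only cells in every library, with log2 ratios of 0.79 (0.55 to 1.03) and 1.01 (0.83 to 1.19) in the control and CD4-Cre pancreas and 0.47 (0.24 to 0.69) and 0.70 (0.53 to 0.87) in the lymph node. Foxp3-positive cells ranked first in both lymph node libraries (106 CPM in control and 79.9 CPM in CD4-Cre) but did not separate from CD8-only cells (84.2 and 76.9 CPM).

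Ubash3a was the most T cell-restricted of the 10. Its level in pancreatic T cells lay between 36.3 CPM (CD8-only, control) and 47.3 CPM (Foxp3-positive, CD4-Cre), and the 3 T cell classes did not separate there. NK cells had 9.48 CPM (3.48 to 20.6) in control, while CD4-Cre had 19.6 CPM (11.6 to 31.0), each below every T cell class. In pancreatic B cells 1 UMI of Ubash3a was found in control and 2 in CD4-Cre, and dendritic cells held 1 in CD4-Cre. No UMI was found in macrophages of either library, with upper limits of 3.87 CPM in control and 4.31 CPM in CD4-Cre. With the 0 set to a floor of 3 UMIs, Foxp3-positive cells were 14.4-fold higher in control and 13.5-fold higher in CD4-Cre. These folds are not bounds, since counting error is left out of them. The level in control B cells was 0.680% of that in CD4-only cells, from that 1 UMI, beside 0.0807% and 0.274% of the receptor constant segments Trac and Trbc2, which B cells do not express. In NK cells the quotient for Ubash3a was 23.6% in control and 46.1% in CD4-Cre, above that of Trac (3.27% and 4.93%) and below that of Trbc2 (40.8% and 48.7%).

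Among lymph node T cells the Foxp3-positive class carried the most Ubash3a. The control level was 81.7 CPM (63.7 to 103) against 47.1 CPM in CD4-only and 39.9 CPM in CD8-only cells, a log2 ratio of Foxp3-positive to CD4-only cells of 0.79 (0.39 to 1.18). In CD4-Cre the levels were 60.1, 49.1 and 32.6 CPM, and the same ratio was 0.29 (-0.04 to 0.61). The interval of the second library includes no difference.

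Tagap was found in every class. Pancreatic T cells had 98.9 to 127 CPM, NK cells 79.0 CPM in control and 54.6 CPM in CD4-Cre, macrophages 76.6 and 78.3 CPM, dendritic cells 43.5 and 68.7 CPM, and B cells 41.8 and 37.4 CPM. B cells were the lowest class in both pancreas libraries, though not separated from dendritic cells in control, and the 44 B cells of the control lymph node had 104 CPM (64.2 to 159) from 21 UMIs. The 3 T cell classes did not separate from each other in the pancreas.

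Cd226 marked CD8-only T and NK cells. In the pancreas CD8-only cells had 82.8 CPM in control and 72.7 CPM in CD4-Cre, and NK cells 79.0 and 134 CPM. CD4-only cells had 30.5 and 27.5 CPM, Foxp3-positive cells 24.9 and 35.0 CPM, dendritic cells 25.2 and 30.3 CPM, and macrophages 19.9 and 47.9 CPM. Only 1 UMI was seen in control B cells and 4 in CD4-Cre B cells, and each of those was in a barcode that also held at least 5 UMIs of Lyz2, S100a8, S100a9 or exocrine enzyme genes. CD8-only cells exceeded CD4-only cells in all 4 libraries, with log2 ratios of 1.44 (1.07 to 1.82), 1.40 (1.12 to 1.69), 1.99 (1.68 to 2.31) and 1.95 (1.71 to 2.20) in the order control pancreas, CD4-Cre pancreas, control lymph node and CD4-Cre lymph node. The competing receptors had another pattern: Tigit was highest in Foxp3-positive cells of the pancreas (551 and 524 CPM), where Cd226 was low, and Cd96 was near even over the T cell classes (71.7 to 95.2 CPM). Of the ligands, Nectin2 was found mainly in B cells (26.2 and 35.8 CPM) and had 0 UMIs in T and NK cells of the pancreas, and Pvr stayed at or below 15.1 CPM in each class.

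Ptpn2 was present in all classes and lowest in macrophages, which in CD4-Cre did not separate from dendritic cells. In the pancreas NK cells had 86.9 and 98.2 CPM in control and CD4-Cre, Foxp3-positive cells 90.8 and 64.3 CPM, CD8-only cells 54.0 and 61.3 CPM, CD4-only cells 53.3 and 59.2 CPM, dendritic cells 44.9 and 45.8 CPM, B cells 42.1 and 50.2 CPM, and macrophages 17.8 and 29.2 CPM. NK cells exceeded CD8-only cells by a log2 ratio of 0.69 (0.19 to 1.17) in control, while CD4-Cre had 0.68 (0.30 to 1.05). The lymph node T cell classes had 48.3 to 66.3 CPM. Its relative Ptpn1, which also acts on Janus kinases, was not lowest in macrophages, with 216 and 205 CPM there and 161 and 173 CPM in CD4-only cells.

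Sh2b3 was a B cell and myeloid transcript. Pancreatic B cells had 66.1 CPM (58.0 to 75.0) in control, while CD4-Cre had 69.5 CPM (62.4 to 77.2), above every other class. Macrophages had 38.8 and 35.1 CPM, dendritic cells 37.4 and 38.4 CPM and NK cells 28.4 and 29.5 CPM, and these 3 classes did not separate. Pancreatic T cell classes had between 10.4 and 19.0 CPM. The log2 ratio of B cells to CD4-only cells was 1.93 in control and 1.91 in CD4-Cre, with both intervals above 1. The family member Sh2b2 was also higher in B cells (24.6 and 26.6 CPM) than in CD4-only cells (0.642 and 0.275 CPM), while Sh2b1 was not (35.2 and 29.8 CPM against 32.8 and 34.5 CPM).

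Tyk2 was highest in NK and dendritic cells. NK cells had 66.4 CPM in control and 51.3 CPM in CD4-Cre, dendritic cells 53.7 and 47.7 CPM, Foxp3-positive cells 33.7 and 27.4 CPM, macrophages 26.2 and 28.0 CPM, CD8-only cells 22.2 and 23.8 CPM, B cells 14.5 and 15.8 CPM, and CD4-only cells 14.1 and 17.2 CPM. NK and dendritic cells did not separate from each other. Against CD4-only cells the log2 ratio was 2.23 (1.59 to 2.88) and 1.58 (1.06 to 2.07) for NK cells and 1.93 (1.38 to 2.49) and 1.47 (1.04 to 1.89) for dendritic cells. The partner kinase Jak1 was likewise highest in NK cells (841 and 732 CPM) but low in dendritic cells (101 and 85.5 CPM), where Jak2 was highest (112 and 83.6 CPM).

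Ifih1 was a myeloid and T cell transcript that B cells nearly lacked. Macrophages had 29.4 CPM (19.5 to 42.5) in control, while CD4-Cre had 23.4 CPM (14.3 to 36.1), dendritic cells 19.7 and 16.1 CPM, and CD4-only cells 12.5 and 12.6 CPM. CD8-only cells had 10.1 and 9.46 CPM, Foxp3-positive cells 11.7 and 8.51 CPM, and NK cells 3.16 and 6.55 CPM. Counts of 3 and 6 UMIs were found in control and CD4-Cre B cells (0.819 and 1.20 CPM), which put them below CD4-only cells by a log2 ratio of -3.93 (-6.27 to -2.28) and -3.40 (-4.88 to -2.22). The other sensor of the family, Ddx58 (RIG-I), did not share this: B cells had 49.7 and 42.8 CPM against 54.0 and 47.4 CPM in CD4-only cells. The adaptor Mavs was also present in B cells, at 20.8 and 24.4 CPM.

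Slc11a1 was a macrophage transcript. Its counts in macrophages were 142 UMIs (control) and 122 UMIs (CD4-Cre), or 149 CPM (126 to 176) and 143 CPM (118 to 170), and dendritic cells 7 and 6 UMIs (4.76 and 3.72 CPM). The log2 ratio of macrophages to dendritic cells was 4.97 (3.89 to 6.31) and 5.26 (4.10 to 6.74). Other pancreatic classes had 0 to 14 UMIs, with the highest level in control Foxp3-positive cells (10.3 CPM from 7 UMIs). Most of these few UMIs sat in barcodes that also carried at least 5 UMIs of myeloid or exocrine genes: 14 of the 14 UMIs in CD4-Cre CD4-only cells came from 19 such barcodes of 1909, and 10 of the 11 in control B cells from 17 of 893. Without these barcodes the level was 0.327 CPM in control CD4-only cells, 0.281 CPM in control B cells, 3.10 CPM in control Foxp3-positive cells, and 0 in CD4-Cre CD4-only, Foxp3-positive and NK cells. In the lymph node 1 UMI was found in all T cells together, in CD4-Cre CD8-only cells.

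Clec16a was low and even by CPM. Its level lay between 7.35 and 11.7 CPM over the 7 classes of the control pancreas and between 5.67 and 14.9 CPM in CD4-Cre, and between 6.82 and 9.59 CPM in lymph node T cells. No class separated from its neighbour in the order in any library. Rnf41, the ubiquitin ligase also called Nrdp1, is the known partner of Clec16a in mitophagy.

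**Figure D1:**
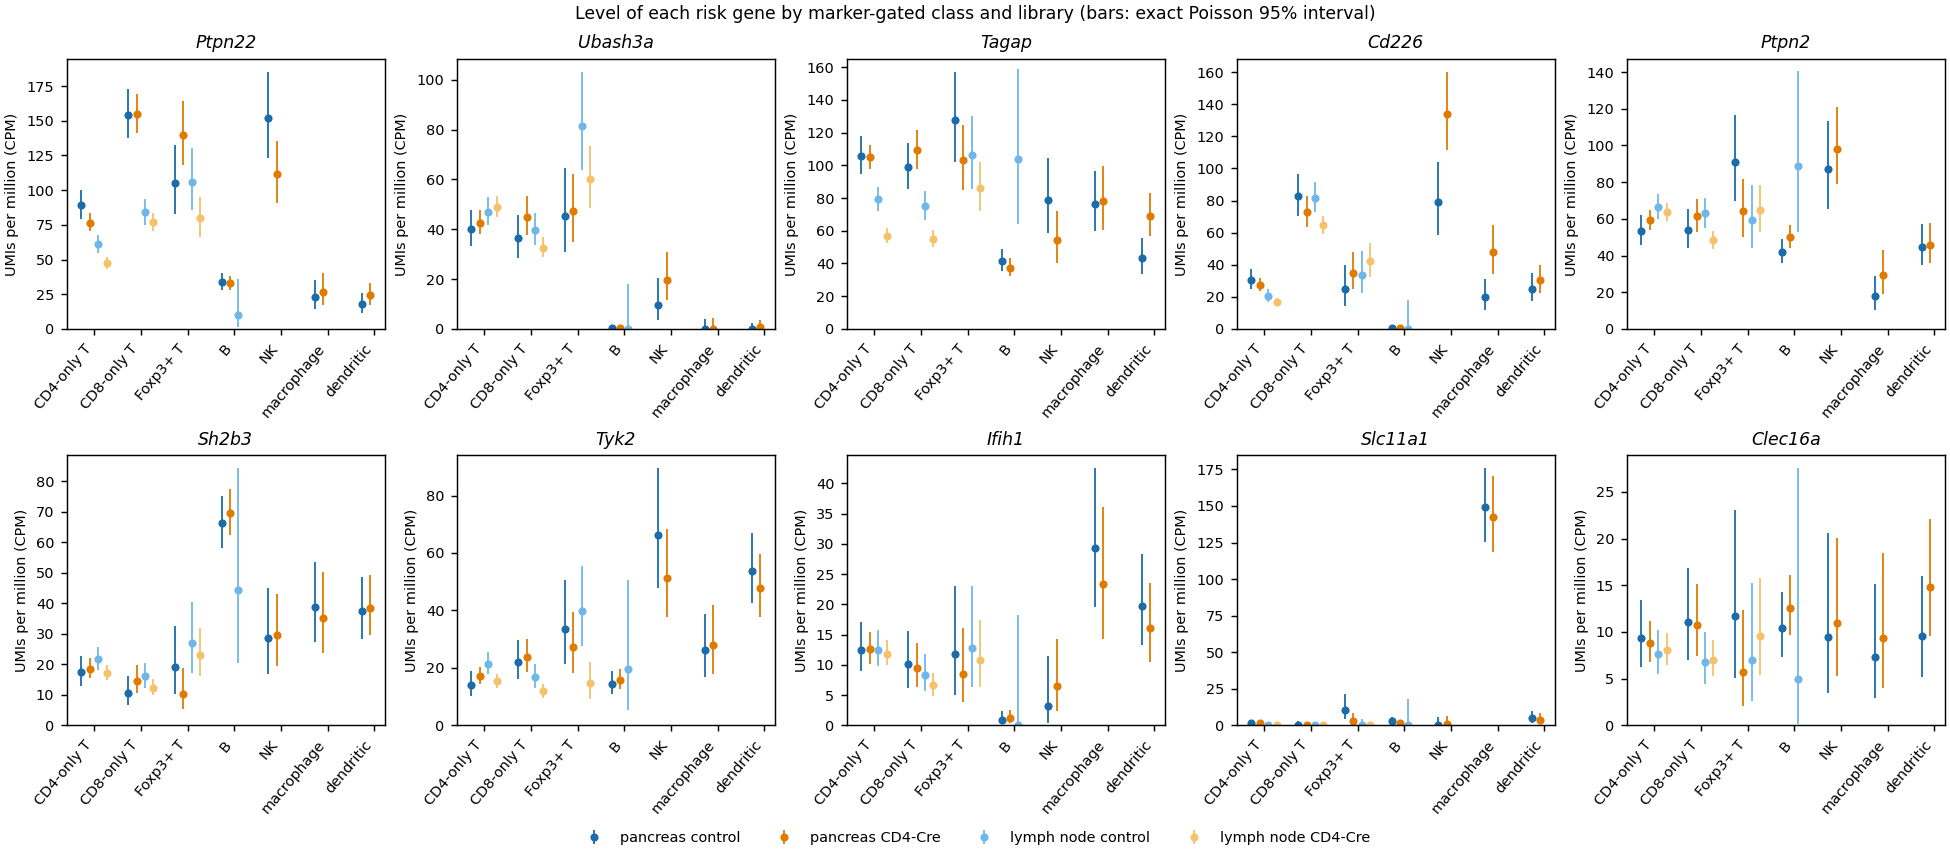
Level of each of the 10 genes (y axis, CPM, linear from 0) in the marker-gated classes (x axis) of the 4 libraries (colours); points are class sums and bars exact Poisson 95% intervals. Slc11a1 stands at 149 and 143 CPM in macrophages and near 0 elsewhere, Ubash3a is confined to T and NK classes apart from 1 or 2 UMIs, Sh2b3 peaks in B cells and Clec16a is flat.

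The genes whose profile over the 21 class and library sums was most like that of each member were found by Pearson's r of log2(CPM + 5) among 9973 genes with at least 200 UMIs. The sums share libraries and depth, and r is given as a description. Among the profiles nearest to Slc11a1 were those of Itgb5 (r = 0.982) and C3ar1 (0.976). Ubash3a was most like Lat (0.986), Cd96 (0.981) and Cd247 (0.979), all known genes of T and NK cells. Ptpn22 was most like Plcxd2 (0.966), Ifih1 like Gltp (0.957), Sh2b3 like Aldh2 (0.942), Ptpn2 like Gnai3 (0.922), Cd226 like Arl6ip5 (0.921) and Tyk2 like Tpm1 (0.895). Tagap and Clec16a had no close neighbour, with the highest r at 0.759 (Aprt) and 0.765 (Galnt1). Between members, r was highest for Ptpn22 and Ubash3a (0.80) and lowest for Ubash3a and Sh2b3 (-0.819).

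Inside CD4-only T cells, Ptpn22 was the member whose level was higher in experienced-gated than in naive-gated cells beyond counting error in every library. Naive-gated cells had a UMI of a set of naive cell genes that holds Ccr7 and none of Cd44, Icos, Pdcd1, Ccl5, Nkg7, S100a4, Cxcr3 and Cxcr6. Experienced-gated cells had no UMI of the naive cell genes and at least 1 of the activation genes named, Cd44 left aside. Ptpn22 had 58.0 CPM in naive-gated and 163 CPM in experienced-gated cells of the control pancreas, 44.6 and 155 CPM in the CD4-Cre pancreas, 46.3 and 128 CPM in the control lymph node, and 39.0 and 176 CPM in the CD4-Cre lymph node. The log2 ratios were 1.49 (1.07 to 1.90), 1.80, 1.46 (0.87 to 2.01) and 2.17 (1.71 to 2.61). The intervals of the naive-gated and experienced-gated levels did not overlap in any of the 4 libraries. Over all genes tested the median of this contrast lay between 0.14 and 0.28. In the same order of libraries, 31.7%, 30.9%, 37.6% and 42.4% of all genes tested passed 1.5-fold in either direction.

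Tagap behaved otherwise in the 2 tissues. Its log2 ratio of experienced-gated to naive-gated CD4-only cells was 0.30 (-0.10 to 0.70) and 0.40 (0.13 to 0.67) in the control and CD4-Cre pancreas, and 2.15 (1.76 to 2.52) and 1.47 (0.97 to 1.94) in the control and CD4-Cre lymph node. The pancreatic naive-gated cells already had 99.4 and 98.9 CPM, against 68.4 and 51.9 CPM in the lymph node. The difference between tissues was not tested, since each tissue is 1 library per genotype. The lymph node values rest on 46 and 73 experienced-gated barcodes, of which 17 and 18 held a Tagap UMI.

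Cd226 was higher in experienced-gated cells by 1.99 (1.23 to 2.77) and 1.46 (0.93 to 1.99) in the pancreas; in the lymph node the ratios of 1.08 and 0.82 rested on 9 and 7 UMIs and their intervals include 0. Ubash3a was higher by 1.22 (0.62 to 1.83) and 0.97 (0.55 to 1.38) in the pancreas and by 0.85 (0.19 to 1.44) in the CD4-Cre lymph node, but not in the control lymph node (-0.33, -1.49 to 0.63, from 9 UMIs). Ptpn2 gave 0.46, 0.11, -0.40 and 0.26, with 0 inside each interval. Sh2b3, Tyk2 and Ifih1 each had intervals above 0 in 1 or 2 libraries, among them Sh2b3 in the control lymph node (2.08, 1.24 to 2.86, from 18 experienced-gated UMIs) and Tyk2 in the CD4-Cre pancreas (1.70, 1.03 to 2.37). In CD8-only cells the gates left enough barcodes of both kinds only in the CD4-Cre libraries, where Ptpn22 again was higher in experienced-gated cells, by 0.93 (0.20 to 1.76) in the pancreas and 1.24 (0.32 to 2.17) in the lymph node. Of all genes tested there, 41.8% and 19.8% passed 1.5-fold in either direction.

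**Figure D2:**
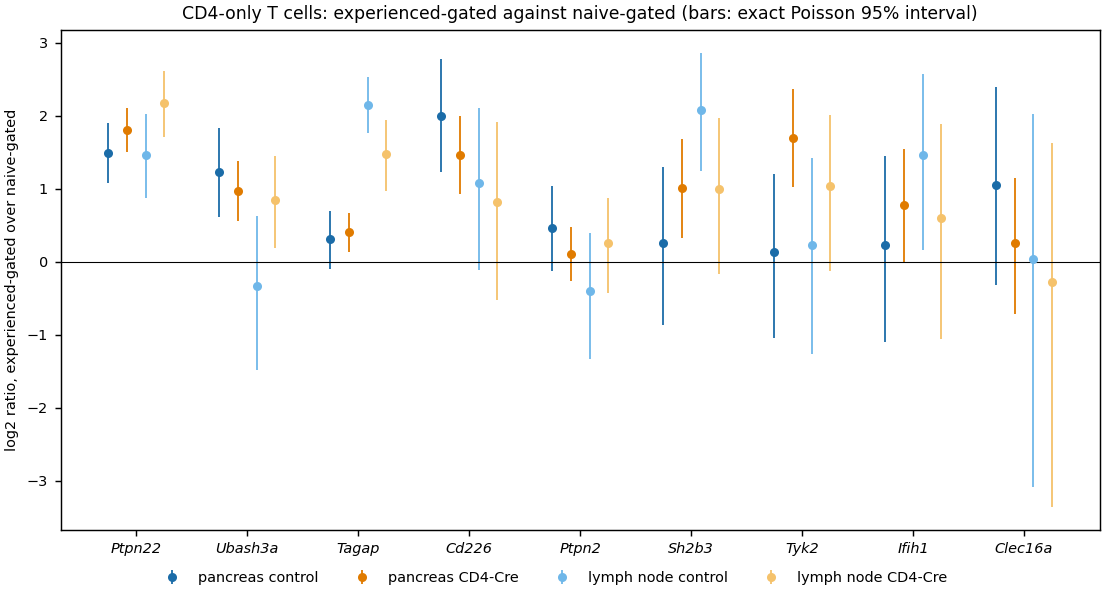
Log2 ratio of experienced-gated over naive-gated CD4-only T cells (y axis) for 9 genes (x axis; Slc11a1 left out for its few UMIs) in the 4 libraries (colours), with exact Poisson 95% intervals as bars. Ptpn22 lies between 1.46 and 2.17 in all libraries, Tagap near 0.30 and 0.40 in the pancreas and at 1.47 and 2.15 in the lymph node, and Ptpn2 around 0.

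T cells of the pancreas and of the lymph node can be set side by side within a genotype, with tissue, age and selection confounded. Ptpn22 was higher in the pancreas in CD4-only cells (log2 ratios of control, 0.55, 0.32 to 0.78, and of CD4-Cre, 0.69, 0.52 to 0.87) and in CD8-only cells (0.88, 0.64 to 1.11, and 1.01, 0.83 to 1.18). In Foxp3-positive cells its ratio was -0.01 (-0.48 to 0.45) in control but 0.81 (0.46 to 1.16) in CD4-Cre. Tagap was higher in the pancreas in CD4-only cells (0.42, 0.21 to 0.63, and 0.88, 0.73 to 1.04) and CD8-only cells (0.39, 0.12 to 0.66, and 0.99, 0.78 to 1.20). Cd226 was higher there in CD4-only cells (0.57 and 0.72) but not in CD8-only cells (0.02, -0.27 to 0.29, and 0.17, -0.06 to 0.40). Ubash3a was lower in pancreatic than in lymph node Foxp3-positive cells of the control (-0.85, -1.51 to -0.22), and in CD4-Cre the value was -0.35 (-0.87 to 0.16). In CD8-only cells of CD4-Cre Ubash3a was higher in the pancreas (0.46, 0.16 to 0.77), against -0.13 (-0.56 to 0.28) in control. Experienced-gated cells made up 19.95% and 16.8% of CD4-only cells in the control and CD4-Cre pancreas and 3.91% and 2.96% in the lymph node. Their part in these tissue differences was not tested.

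**Figure D3:**
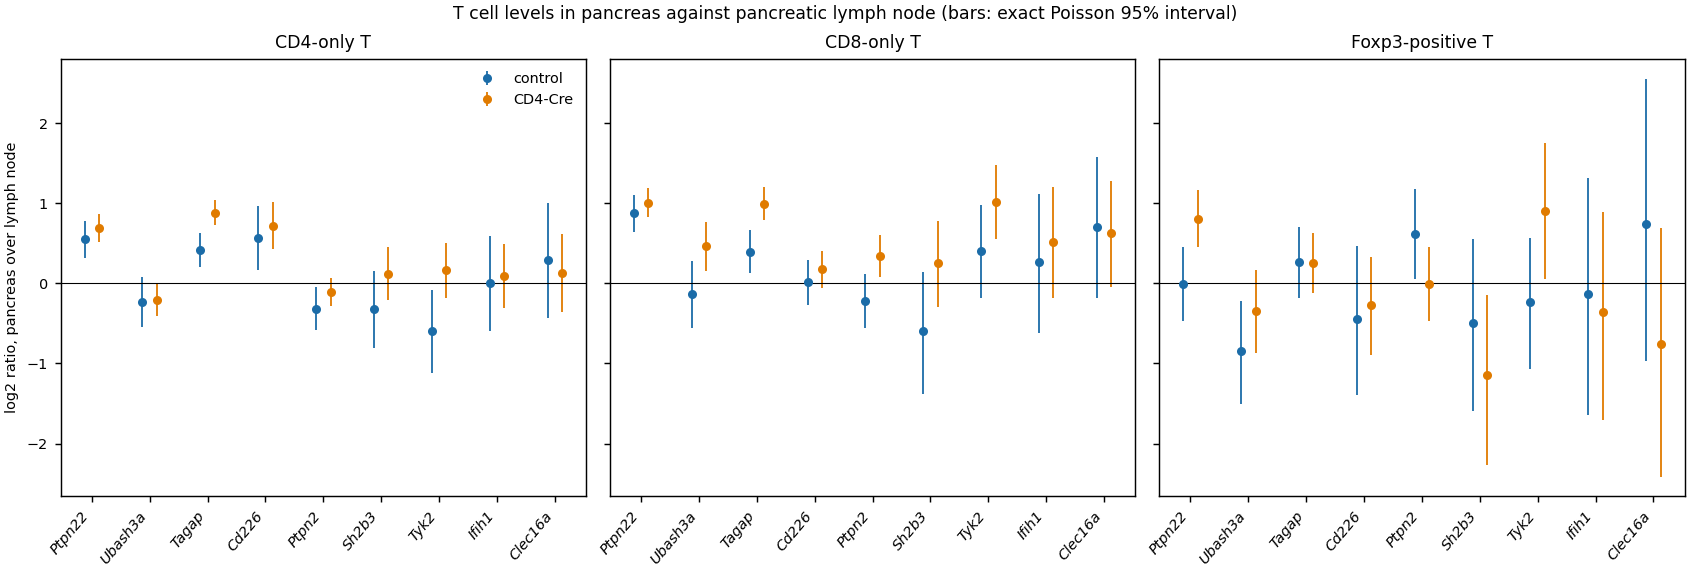
Log2 ratio of the level in pancreas over pancreatic lymph node (y axis) for 9 genes (x axis; Slc11a1 left out for its few UMIs) in 3 T cell classes (panels), for control (blue) and CD4-Cre (orange), with exact Poisson 95% intervals. Ptpn22 and Tagap lie above 0 in CD4-only and CD8-only cells in both genotypes, while Ifih1 has 0 inside each interval.

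The genotypes were compared within each tissue and class, which asks whether loss of Ocab in T cells goes with other levels of these genes. A gene was tested in a class when it had at least 50 UMIs over the pair of libraries, and called when CD4-Cre and control differed by at least 1.5-fold either way. With 1 library a group there is no replicate check and no p-value, and each ratio compares 2 libraries. In the pancreas 45 of 70 pairs of gene and class could be tested, and 3 were called. In the lymph node 25 of 30 could be tested, and 1 was called.

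The share of all genes called by the same rule shows what 2 libraries of this depth give. In the pancreas it was 6.35% in CD4-only cells, 9.16% in CD8-only cells, 10.2% in Foxp3-positive cells, 5.33% in B cells, 9.54% in NK cells, 13.9% in macrophages and 9.7% in dendritic cells. None of the 9 members tested in CD4-only cells, the 8 in CD8-only cells, the 6 in Foxp3-positive cells and the 6 in B cells was called. The calls were 1 of 5 in NK cells, 1 of 4 in macrophages and 1 of 7 in dendritic cells. In the lymph node the share of all genes was 5.35% in CD4-only, 6.07% in CD8-only and 9.06% in Foxp3-positive cells, and the members called were 0 of 9, 0 of 9 and 1 of 7. The counts of 3 in 45 and 1 in 25 lie near these backgrounds.

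Cd226 gave both calls outside dendritic cells. In NK cells it had 50 UMIs in 165 control barcodes and 123 UMIs in 216 CD4-Cre barcodes, 79.0 CPM (58.6 to 104) against 134 CPM (112 to 160), a log2 ratio of 0.76 (0.28 to 1.27). A UMI was seen in 25.5% of control and 34.3% of CD4-Cre NK barcodes. In macrophages 19 UMIs in 104 barcodes stood against 41 in 88, 19.9 CPM (12.0 to 31.2) against 47.9 CPM (34.4 to 65.0), a log2 ratio of 1.26 (0.45 to 2.13). A UMI was seen in 11.5% of control and 31.8% of CD4-Cre macrophage barcodes, with at most 4 UMIs in one barcode. In both classes the level intervals of the 2 libraries did not overlap. Pou2af1 had 0 UMIs in both classes of the control library, 1 in CD4-Cre NK cells and 0 in CD4-Cre macrophages. Thinned to 1000 UMIs per barcode, the NK ratio was 0.42, below the 1.5-fold line.

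Marker sums of other cell types differed between the genotypes in these classes. NK cells of CD4-Cre had 748 Lyz2 UMIs against 6 in control, of which 2 barcodes held all but 7. The 5 macrophage markers summed to 851 CPM in CD4-Cre NK cells and 12.6 CPM in control. The 2 barcodes held 2 of the 123 Cd226 UMIs, and the ratio in NK cells was 0.79 without those barcodes. In macrophages the 4 CD8 T markers summed to 886 CPM in control and 148 CPM in CD4-Cre, with 2 of 4 detected in each library. Only 1 of the 4 was above 10 CPM in each, and Trac, the receptor segment among them, had 0 UMIs in both. The monocyte markers summed to 333 CPM in control and 501 CPM in CD4-Cre macrophages. The complement genes C1qa, C1qb and C1qc mark tissue macrophages and define this gate. They had 5952, 5703 and 4745 CPM in control and 4456, 4414 and 3401 CPM in CD4-Cre. Whether the mix of cells in the gate differed was not tested. No UMI of a CD4 T marker was found in the macrophages. The part of these values in the Cd226 ratio was not tested.

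Tagap was called in dendritic cells, with 64 UMIs in 105 control barcodes against 111 in 128 CD4-Cre barcodes, 43.5 CPM (33.5 to 55.6) against 68.7 CPM (56.5 to 82.8), a log2 ratio of 0.66 (0.20 to 1.13). A single CD4-Cre barcode held 18 of the 111 UMIs, whereas the control maximum was 5. With equal weight per barcode the log2 ratio was 0.44, and with a pseudocount of 10 CPM it was 0.56, both below the 1.5-fold line. Genes that define the gate also differed. Xcr1 and Clec9a, genes of type 1 conventional dendritic cells, had 74.8 and 55.8 CPM in control and 137 and 116 CPM in CD4-Cre. Siglech, of plasmacytoid cells, had 38.1 and 77.4 CPM. Cd209a had 628 and 846 CPM, and Flt3 97.2 and 103 CPM. Whether the mix of cells in the gate differed, and its part in the Tagap value, was not tested.

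Over the 7 pancreatic classes Ptpn22 had the other intervals that left out 0, all short of 1.5-fold. Its log2 ratio was -0.22 (-0.43 to -0.01) in CD4-only cells, with 278 and 558 UMIs, and -0.45 (-0.86 to -0.03) in NK cells, with 96 and 102 UMIs. In CD8-only cells, where Ptpn22 was highest, the ratio was 0.00 (-0.21 to 0.21). In naive-gated CD4-only cells it was -0.38 and in experienced-gated cells -0.06 (-0.41 to 0.29). Of the other members within these gates, Ptpn2 had 0.39 (0.00485 to 0.79) in naive-gated CD4-only cells and Tagap 0.38 (0.01 to 0.74) in experienced-gated CD8-only cells. Pancreatic CD4-only cells of CD4-Cre had 615 CPM of neutrophil markers against 278 CPM in control, with all 4 of 4 detected in each. These markers were also higher in CD8-only cells (6.56 against 149 CPM in CD4-Cre) and Foxp3-positive cells (1.46 against 354 CPM), and exocrine markers in CD8-only cells (30.3 against 894 CPM). The part of this RNA in the T cell ratios was not tested.

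The median log2 ratio over the members tested was 0.01 in pancreatic CD4-only cells (0.04 over all genes), 0.12 in CD8-only cells (-0.02), -0.12 in Foxp3-positive cells (0.05), 0.10 in B cells (0.06), -0.02 in macrophages (-0.006) and 0.04 in dendritic cells (-0.005). In NK cells it was -0.37 (0.03), over 5 members of which Cd226 and Ptpn2 lay above 0 and Tagap, Ptpn22 and Tyk2 below. Slc11a1 in macrophages had a log2 ratio of -0.06 (-0.43 to 0.29) and Sh2b3 in B cells 0.07 (-0.17 to 0.32), so in the classes where these genes are highest the intervals leave out a change of 1.5-fold.

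In lymph node T cells 20 of 25 ratios lay below 0, and 10 intervals lay wholly below it. By class, 7 of 9, 8 of 9 and 5 of 7 members lay below 0 in CD4-only, CD8-only and Foxp3-positive cells, where 66.5%, 68.5% and 54.9% of all genes tested did. Intervals wholly below 0 were found for 4 of 9, 4 of 9 and 2 of 7 members and for 16.0%, 15.3% and 7.02% of all genes. The median over members was -0.30 in CD4-only cells, -0.35 in CD8-only cells and -0.30 in Foxp3-positive cells, against -0.07, -0.10 and -0.04 over all genes. In CD4-only cells Tagap was at 79.1 CPM (72.0 to 86.7) in control, while CD4-Cre had 56.9 CPM (52.6 to 61.5), a log2 ratio of -0.48 (-0.65 to -0.30), and at 75.3 and 54.8 CPM in CD8-only cells, -0.46 (-0.68 to -0.24). Ptpn22 had 60.9 and 47.4 CPM in CD4-only cells (-0.36, -0.56 to -0.16), 84.2 and 76.9 CPM in CD8-only cells (-0.13, -0.33 to 0.07) and 106 and 79.9 CPM in Foxp3-positive cells (-0.41, -0.81 to -0.00347). Ubash3a in CD4-only cells differed little, with 47.1 and 49.1 CPM (0.06, -0.15 to 0.27). All of these were short of 1.5-fold.

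In CD8-only cells of the lymph node Cd226 had a log2 ratio of -0.34 (-0.55 to -0.14) and Ptpn2 -0.38 (-0.62 to -0.14). Sh2b3 in CD4-only cells had -0.34 (-0.68 to -0.01). The size of these ratios depended on the library scaling. Factors from edgeR's TMM method moved the lymph node ratios up by 0.09 in CD4-only, 0.12 in CD8-only and 0.08 in Foxp3-positive cells, and relative to that shift the medians over members were -0.22, -0.23 and -0.22, with 18 of 25 ratios below 0. With barcodes held to at most 5% mitochondrial UMIs the medians were -0.33, -0.36 and -0.32. The part of library quality in the lymph node ratios was not tested.

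Tyk2 was the member called over the 3 lymph node classes. In Foxp3-positive cells it had 34 UMIs in 169 control barcodes and 23 UMIs in 358 CD4-Cre barcodes, 39.7 CPM (27.5 to 55.4) against 14.7 CPM (9.32 to 22.1), a log2 ratio of -1.43 (-2.26 to -0.63). A UMI was seen in 17.2% of control and 5.31% of CD4-Cre barcodes, with at most 2 in one barcode of either library. The level intervals did not overlap. Tyk2 was lower in the other lymph node classes as well, with -0.47 (-0.82 to -0.13) in CD4-only cells and -0.51 (-0.98 to -0.03) in CD8-only cells, short of 1.5-fold. In pancreatic Foxp3-positive cells, with 23 and 29 UMIs, the ratio was -0.30 (-1.14 to 0.56).

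Within the naive and experienced gates 3 further ratios passed 1.5-fold. Tagap in lymph node experienced-gated CD4-only cells gave 76 UMIs (control) against 41 (CD4-Cre), 303 CPM (239 to 380) against 144 CPM (103 to 196), a log2 ratio of -1.07 (-1.66 to -0.51). These counts come from 46 and 73 barcodes, and 15.6% of all genes were called in that comparison. The level intervals did not overlap, but they treat each UMI as independent. The Tagap UMIs sat in 17 control and 18 CD4-Cre barcodes, with up to 11 and 8 in one barcode. A UMI was thus seen in 37.0% of control and 24.7% of CD4-Cre barcodes. Thinned to 1000 UMIs per barcode, these shares were 10.9% and 9.72%. Tyk2 had opposite signs in the gates of pancreatic CD4-only cells, -0.63 (-1.40 to 0.16) in naive-gated cells, where 8.36% of all genes were called, and 0.94 (-0.04 to 2.05) in experienced-gated cells, where 10.3% were. Both of its intervals include 0.

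**Figure D4:**
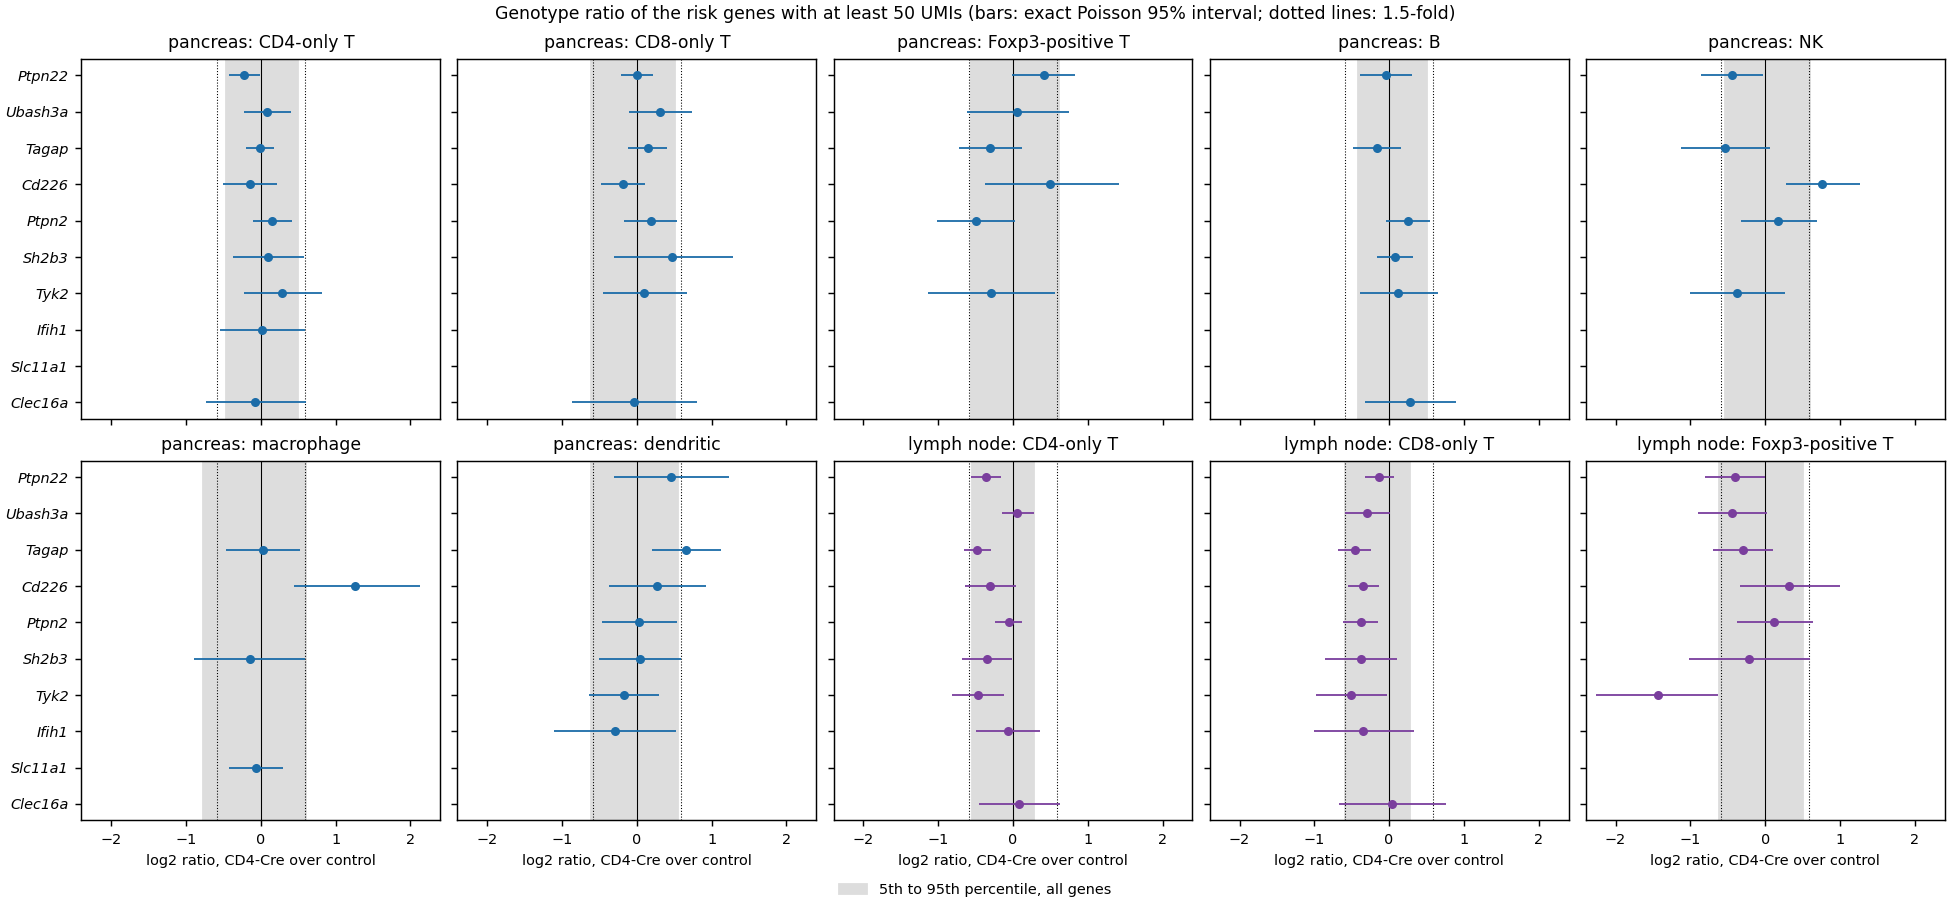
Log2 ratio of CD4-Cre over control (x axis) for members with at least 50 UMIs (y axis) in the 10 comparisons of tissue and class (panels), with exact Poisson 95% intervals, the 1.5-fold lines (dotted) and the 5th to 95th percentile over all genes tested (grey). Cd226 in NK cells and macrophages, Tagap in dendritic cells and Tyk2 in lymph node Foxp3-positive cells lie past the dotted lines, and most lymph node points lie left of 0.

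The partners of the members were taken from lists by pathway. Of the receptor signal brakes Csk, Ubash3b, Ptpn6, Cbl, Cblb and Pag1, at least 4 of 6 were tested in each class, and 1 was called in the 10 comparisons: Cblb in pancreatic dendritic cells, with 47.6 CPM in control and 20.4 CPM in CD4-Cre (-1.22, -1.86 to -0.60). In those dendritic cells 5 of the 6 were tested, and 9.7% of all genes were called. The list median in lymph node CD4-only cells was -0.23. Csk, the partner of Ptpn22, was highest in B cells (402 and 479 CPM), where Ptpn22 was low.

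Of the JAK-STAT genes tested in the pancreas, 1 of 10 was called higher in CD8-only cells, 2 of 9 in Foxp3-positive cells, 1 of 9 in NK cells and 1 of 9 in dendritic cells, and none lower. Over all genes tested, 3.67%, 5.60%, 5.52% and 4.13% were called higher in these classes. The calls in Foxp3-positive cells were Jak3 (0.62) and Irf9 (0.60), and that in dendritic cells Stat2 (0.59). In Foxp3-positive cells 10.2% of all genes were called, and their dendritic markers summed to 1182 CPM in control and 508 CPM in CD4-Cre, beside the neutrophil markers given above. None of the 10, 10 and 9 tested in the lymph node classes was called, with list medians of -0.11, -0.15 and -0.09.

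Of the 9 genes of RNA sensing, which respond to interferon in part, Ifit3 was called higher in CD4-Cre in all 3 lymph node classes, by 1.37 (0.88 to 1.88) in CD4-only, 0.67 (0.29 to 1.07) in CD8-only and 1.17 (0.15 to 2.33) in Foxp3-positive cells. Ifit1 was called there in CD4-only (0.73) and Foxp3-positive cells (0.62). Calls were 2 of 9 tested in CD4-only, 1 of 9 in CD8-only and 2 of 7 in Foxp3-positive cells, all higher. Over all genes 1.13%, 1.08% and 3.24% were called higher. Ifih1 stood at -0.07 (-0.50 to 0.36) and -0.35 (-1.01 to 0.34) in CD4-only and CD8-only cells of the same libraries. In the pancreas Irf7 and Isg15 moved in opposite directions in the myeloid classes: in dendritic cells Irf7 went from 44.9 CPM in control to 104 CPM in CD4-Cre (1.21) and Isg15 from 68.7 to 160.0 CPM (1.22), while in macrophages Irf7 went from 84.0 to 22.2 CPM (-1.92) and Isg15 from 86.1 to 56.1 CPM (-0.62). Irf7 and Isg15 were the 2 called of 4 tested in dendritic cells and of 3 in macrophages, where 9.7% and 13.9% of all genes were called. Gate genes differed between the genotypes in both classes, as given above, and their part in these values was not tested. Ifih1 had -0.29 (-1.11 to 0.52) in dendritic cells, and in macrophages 28 and 20 UMIs, too few to be tested. Of the list, 1 of 8 tested was called lower in pancreatic CD4-only cells and 1 of 7 higher in B cells, against 3.07% and 3.29% of all genes.

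On the CD226 axis, Tigit was called higher in lymph node CD4-Cre CD4-only cells (6.23 against 13.02 CPM, 1.06, 0.53 to 1.63). It was 1 of 3 tested there, and 1.13% of all genes were called higher. No gene was called in the pancreas, where up to 3 of the 5 were tested in a class. Among metal transport genes Slc11a2 had 0.70 (-0.02 to 1.47) in pancreatic and -0.59 (-0.92 to -0.26) in lymph node CD8-only cells, and Tfrc, the transferrin receptor, -0.66 (-1.39 to 0.06) in pancreatic B cells. Each was the only one of the 3 transport genes tested in its class, where 9.16%, 6.07% and 5.33% of all genes were called. Of the mitophagy genes 4 of 6 are listed in the matrices under the names used, and 1 was called, Rnf41 in lymph node Foxp3-positive cells (0.59, -0.07 to 1.28, from 27 and 74 UMIs), an interval that includes 0. All 4 were tested there, and 3.24% of all genes were called higher.

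A further list of 37 candidate genes of type 1 diabetes was examined in the same way, and all 37 are listed in the matrices. In lymph node CD4-only cells 0 of 26 tested were called higher and 6 lower in CD4-Cre, with a median of -0.36. Over all genes tested there, 1.13% were called higher and 4.23% lower, with a median of -0.07. The lowest were Il2 (5.89 against 2.59 CPM, -1.19, -1.95 to -0.43), the growth factor of T cells, and Rgs1 (24.6 against 11.9 CPM, -1.05, -1.40 to -0.70), a regulator of G protein signalling. The other 4 were Tnfaip3, Cd69, Ctla4 and Il21, genes known to be induced in activated T cells. In lymph node CD8-only cells 0 of 21 were higher and 4 lower, with Rgs1 (-1.38) and Dexi (-1.18) the lowest, against 1.08% and 4.99% of all genes. In Foxp3-positive cells 2 of 21 were higher, Gpr183 (0.96) and Themis (0.80), and 1 lower, Ikzf1 (-0.62), against 3.24% and 5.83% of all genes.

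In the pancreas the candidate list was called in both directions. Of 27 tested in CD4-only cells, 2 were higher and 0 lower, against 3.28% and 3.07% of all genes. The 2 were Ctsh (1.63, 0.56 to 2.91, from 8 and 58 UMIs) and Phtf1 (0.71, 0.25 to 1.20). In the same cells Lyz2, a myeloid gene, had 92.8 CPM in control and 272 CPM in CD4-Cre. The part of myeloid RNA in the Ctsh value was not tested. Of 24 in CD8-only cells, 0 were higher and 4 lower, against 3.67% and 5.49% of all genes. The lowest were Il2ra (-0.82) and Tnfaip3 (-0.79). Experienced-gated cells made up 60.6% of control and 36.1% of CD4-Cre CD8-only cells there, and their part in these values, like that of the neutrophil and exocrine RNA in CD4-Cre CD8-only cells, was not tested. Of 24 in Foxp3-positive cells, 3 were higher and 0 lower, against 5.60% and 4.59% of all genes. The highest were Aff3 (0.77, -0.06 to 1.67) and Phtf1 (0.73, -0.14 to 1.66), both with intervals that include 0. Of 19 in B cells, 1 was higher and 0 lower, against 3.29% and 2.05% of all genes. It was Stat4 (65.3 against 99.7 CPM, 0.61, 0.39 to 0.84). Of 17 in NK cells, 1 was higher and 1 lower, against 5.52% and 4.02%. Of 12 in macrophages, 1 was higher and 2 lower, against 5.42% and 8.47% of all genes. Of 13 in dendritic cells, 1 was higher and 1 lower, against 4.13% and 5.57%. Rgs1 was lower in macrophages (-0.996) and dendritic cells (-0.93), and Il7r higher in dendritic cells (23.8 against 50.8 CPM, 1.09). Gate genes of both classes differed between the genotypes, as given above, and their part in these values was not tested. The candidate list has medians between -0.09 and 0.08 in the pancreatic lymphocyte classes, 0.31 in macrophages over 12 genes and -0.03 in dendritic cells over 13.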

How the data were processed

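The 4 groups had 1 library each. The deposited values are UMI counts per gene and barcode, whole numbers without normalization, made by the authors with Cell Ranger on mm10 per the submitters' processing notes; the matrix headers name software version 3.0.0. Annotation, aligner settings and strand are not given in the sources used here. Each count is of 1 library, so depth sets the precision.

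Kept barcodes had 500 or more genes and no more than 10% of UMIs from mitochondrial genes, after removal of the highest doublet scores (scanpy 1.11.5, 0.8% per 1000 barcodes listed). Classes were gated on marker UMIs, not clustered, so each is only as pure as its gate; a T barcode without a Cd4 or Cd8 UMI is left out. UMIs were summed by class (at least 20 barcodes) and scaled to CPM. Ratios need at least 50 UMIs over both libraries; a 0 was given a floor of 3 UMIs. Factors from edgeR 4.0.16 and DESeq2 1.42.0 served as alternatives of scale only. Calculations were tested on simulated data. In all, 31011 of 31053 identifiers matched GENCODE M21.

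Named genes are the 10 members, their 3 nearest profiles, the partner lists, and from the candidate list the 2 highest and 2 lowest ratios tested in a class; Tnfaip3, Cd69, Ctla4 and Il21 in the lymph node were named after their values were seen. Members and lists were chosen with earlier results of these data known. Results for some genes of the gates, the partner lists and the nearest profiles are not reported here.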

Additional observations from a re-analysis of the deposited data

How the results depend on the processing

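No paired analysis was possible because each group has 1 library and the labels carry no replicate numbers. Each result was recomputed under 15 alternatives, and 1 more was chosen after seeing the data: leaving out T, B and NK barcodes with at least 5 UMIs of Lyz2, S100a8, S100a9 or exocrine enzyme genes. Of 153 recomputed medians over members, 151 moved by less than the median half-width of the single members' intervals. That limit is the counting error of a typical single member, not of the median, and it is wide. The median in pancreatic NK cells, -0.37, moved further. It became 0.18 with genes that had at least 1 UMI in each library and 0.42 with barcodes thinned to 1000 UMIs, where 1 member was left. The median in pancreatic Foxp3-positive cells, -0.12, became 0.41 at a minimum of 200 UMIs, where 1 member was left. This move counts among the 151, since the limit there was 0.60. The 3 calls over the 7 pancreatic classes became 7 at a minimum of 20 UMIs, 12 with at least 1 UMI in each library, 0 at 200 UMIs and 1 after thinning. The 1 call in the lymph node became 0 at 200 UMIs and 2 after thinning. These counts move with how many pairs are tested: 54, 66, 16 and 15 in the pancreas, and 15 and 13 in the lymph node. Of 1027 recomputed single ratios 1016 stayed inside the counting error, and the 11 that did not were all from thinning. Levels depended more on the processing: of 2060 recomputed levels 1849 were rated the same and 211 moved. Totals without receptor, ribosomal, mitochondrial and exocrine genes gave 114 of these, thinning 81, and leaving out barcodes rich in myeloid or exocrine UMIs 9. Over the alternatives Cd226 lay between 0.42 and 0.81 in NK cells and between 0.95 and 1.43 in macrophages, Tagap in dendritic cells between 0.44 and 0.68, and Tyk2 in lymph node Foxp3-positive cells between -1.59 and -1.01. With 1 library a group, no alternative shows the spread between mice.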
